A study of Mus musculus with 14 samples.

Results

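Antibody gene transcripts were followed in sorted mouse bone marrow cells through 50 immunoglobulin probe sets, selected from the 22690 probe sets of the array table by their annotated symbols. The immunoglobulin family was picked with earlier results of these data known. A probe set, the group of short oligonucleotides that reports on a transcript, was a member when its annotated symbols included a heavy, kappa or lambda chain constant, variable or joining segment, a rule that uses no measured value. Of the 50, 37 carried 1 symbol and 13 carried several. By chain, 18 reported on heavy chain constant genes (Ighm 11, Ighg3 4 and Igha 3), 1 on the heavy chain variable segment Ighv14-2, 4 on several heavy chain symbols at once, 24 on the kappa light chain and 3 on the lambda light chain. No probe set carried Ighd, Ighe, Igkc or an Iglc symbol alone.

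The cells were bone marrow cells purified by flow cytometry with the phenotype Sca1+/cKit-, where Sca1 is a glycolipid-anchored surface protein and cKit the stem cell factor receptor. Matrigel arrays (n = 4) came from mice with Matrigel, a basement membrane extract, as the tumour-free control. Instigator arrays (n = 5) came from mice with a BPLER tumour, grown from transformed human mammary epithelial cells and labelled instigating, and Non-instigator arrays (n = 5) from mice with a size-matched tumour of PC3, a human prostate cancer line, labelled non-instigating. The labels used here do not give host strain, sex or age, the immune cells the hosts had, or the time after implantation. The array titled Instigator 5 carries a description that names the PC3 tumour; it was kept by its title and source. The labels do not tie arrays to separate animals, so each p-value reflects only array-to-array spread, part of which may be technical.

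Immunoglobulins are made by cells of the B lineage. Each developing B cell joins variable, diversity and joining segments into a heavy chain gene and then variable and joining segments into a kappa or lambda light chain gene, with the RAG recombinase making the cuts. The heavy chain constant region sets the isotype: Ighm encodes the mu chain of IgM, the first isotype made, and Ighg3 and Igha encode the gamma3 and alpha chains of IgG3 and IgA, reached by class switching. Immature and mature B cells carry membrane-bound immunoglobulin with the signalling partners Cd79a and Cd79b, while plasma cells, which settle in the marrow, secrete it and hold very large amounts of immunoglobulin mRNA. Mouse antibodies carry mostly kappa chains and far fewer lambda chains. A variable segment is used only by the clones that rearranged it, so its transcript reports on a subset of the B and plasma cells in a sample.

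Median intensity per array ran from 119 to 145, and the number of arrays limits the precision. Values below are log2 of RMA intensity, an affinity-dependent scale on which levels of different probe sets are not comparable, and a difference of -1 is a level at 50 percent of the other group's. Instigator 4 stood apart in the actin control: the 5' reading minus the 3' reading was -3.41, where the remaining 13 arrays gave -0.81 to -0.51. Matrigel 3 stood apart in its median log2 value of 7.18, where the remaining arrays gave 6.90 to 7.01. The Sca1 gene, Ly6a, is not named alone on any probe set, so the sort could not be checked on it. Kit, which encodes cKit, averaged 7.52 in Matrigel, 7.58 in Instigator and 7.37 in Non-instigator.

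No immunoglobulin probe set passed the adjusted threshold of 0.05 in any of the 3 comparisons, nor did any of the 22626 probe sets tested with limma (0 percent called, Benjamini-Hochberg adjustment). The smallest adjusted p over the members was 0.439 for Instigator against Matrigel, 0.986 for Non-instigator against Matrigel and 0.813 for Instigator against Non-instigator. What follows describes sizes and unadjusted counts, none of which is a call. The comparisons share arrays: both that involve Instigator rest on the same 5 Instigator arrays, and both against Matrigel on the same 4 Matrigel arrays.

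Against Matrigel, the lambda light chain had the lowest class median in the Instigator arrays, and the heavy chain constant genes were centred near 0. The median difference was -1.33 over the 3 lambda probe sets and -0.54 over the 24 kappa probe sets. It was -0.08 over the 18 heavy chain constant probe sets and -0.10 over the 4 with several heavy chain symbols, and the 1 heavy chain variable probe set, Ighv14-2, lay at -0.65. The lowest heavy chain set, Ighm 1452535_at, lay at -0.91. The kappa median depended on 2 arrays: it was -0.27 without Instigator 4 and -0.13 without Instigator 4 and Matrigel 3, an alternative chosen after seeing the data. The lambda median was -1.05 and -1.03 in the same settings. In bulk samples, fewer B lineage cells in a sort and less immunoglobulin RNA per cell cannot be told apart. Over all 50 members the median was -0.20, beside -0.03 over all probe sets, and 36 of 50 lay below 0, where the share over all probe sets was 57.2 percent. At an unadjusted p under 0.05, 8 members were lower in Instigator and 0 higher, beside 7.00 percent lower and 3.27 percent higher over all probe sets (10.3 percent in either direction). All 8 were light chain probe sets, 3 lambda and 5 kappa. A difference below -0.5 was found for 21 members, and for 3.06 percent of all probe sets, while a difference above 0.5 was found for 0 members and 0.720 percent of all. The median within-group SD was 0.61 over the members and 0.19 over all probe sets. In every comparison a cut at 0.5 is therefore passed more easily by members, so its share over all probe sets is no matched background. The excess at p under 0.05, counted in either direction, was small or absent without any 1 of several arrays. Without Instigator 4 there were 4 members lower and 0 higher, 8 percent of members beside 8.49 percent of all probe sets. Of all probe sets 5.65 percent were then lower, so in that direction the share of members stayed above the background. Without Matrigel 3 there were 3 lower and 1 higher (8 percent, beside 6.96 percent in either direction and 3.69 percent lower). Without Matrigel 1 the share was 12 percent beside 12.1 percent, and without Matrigel 4 it was 12 percent beside 11.9 percent. With both left out, 2 members were lower and 1 higher, which is 6 percent of members beside 6.86 percent of all probe sets, so the share of members was at the background and no longer in 1 direction. The median over members was then -0.07, beside 0.02 over all probe sets. Differences below -0.5 were then found for 9 members and 1.15 percent of all probe sets. Scaling shifted the medians of members and background alike. The member median was -0.18 after quantile normalization and -0.13 after centring, beside 0.01 and 0.05 over all probe sets. The direction of the split at p under 0.05 changed over all probe sets but not over the members, whose wider spread is given above. Over all probe sets the split at p under 0.05 was 1584 lower and 740 higher as deposited, 1198 and 1298 after quantile normalization, and 961 and 1772 after centring each array on its median. The members split 8 lower and 0 higher, 7 and 0, and 6 and 1 under the same settings.

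Instigator against Non-instigator gave a similar order of classes, with medians of -1.01 for lambda, -0.41 for kappa and 0.02 for heavy chain constant probe sets. Without Instigator 4 the lambda and kappa medians were -0.73 and -0.18. Of the 50 members 32 lay below 0, beside 44.2 percent of all probe sets. At an unadjusted p under 0.05, 7 members were lower and 1 higher, beside 3.36 percent and 2.24 percent of all probe sets (5.60 percent in either direction). The split over all probe sets was 761 lower and 507 higher as deposited, 667 and 680 after quantile normalization, and 666 and 817 after centring. A difference below -0.5 was found for 15 members and 1.68 percent of all probe sets, and one above 0.5 for 0 members and 0.420 percent of all. Without Instigator 4 and Matrigel 3, 3 members were lower and 1 higher at p under 0.05, which is 8 percent of members beside 7.58 percent of all probe sets and so near the background. In that setting 10 members lay below -0.5, beside 0.857 percent of all probe sets.

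Non-instigator and Matrigel differed least. The class medians were -0.32 for lambda, -0.06 for kappa and -0.06 for heavy chain constant probe sets. No member had an unadjusted p under 0.05, where the background was 2.11 percent (1.51 percent lower and 0.601 percent higher), and the 50 differences ran from -1.14 to 0.25. A difference below -0.5 was found for 2 members and 0.252 percent of all probe sets, and one above 0.5 for 0 members and 0.150 percent. Of these, 42 lay below 0, beside 63.8 percent of all probe sets, but the count was 23 without Non-instigator 1, and the median of -0.07 moved to 0.03. Over all probe sets the split at p under 0.05 was 341 lower and 136 higher, and 244 and 245 after quantile normalization.

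**Figure D1:**
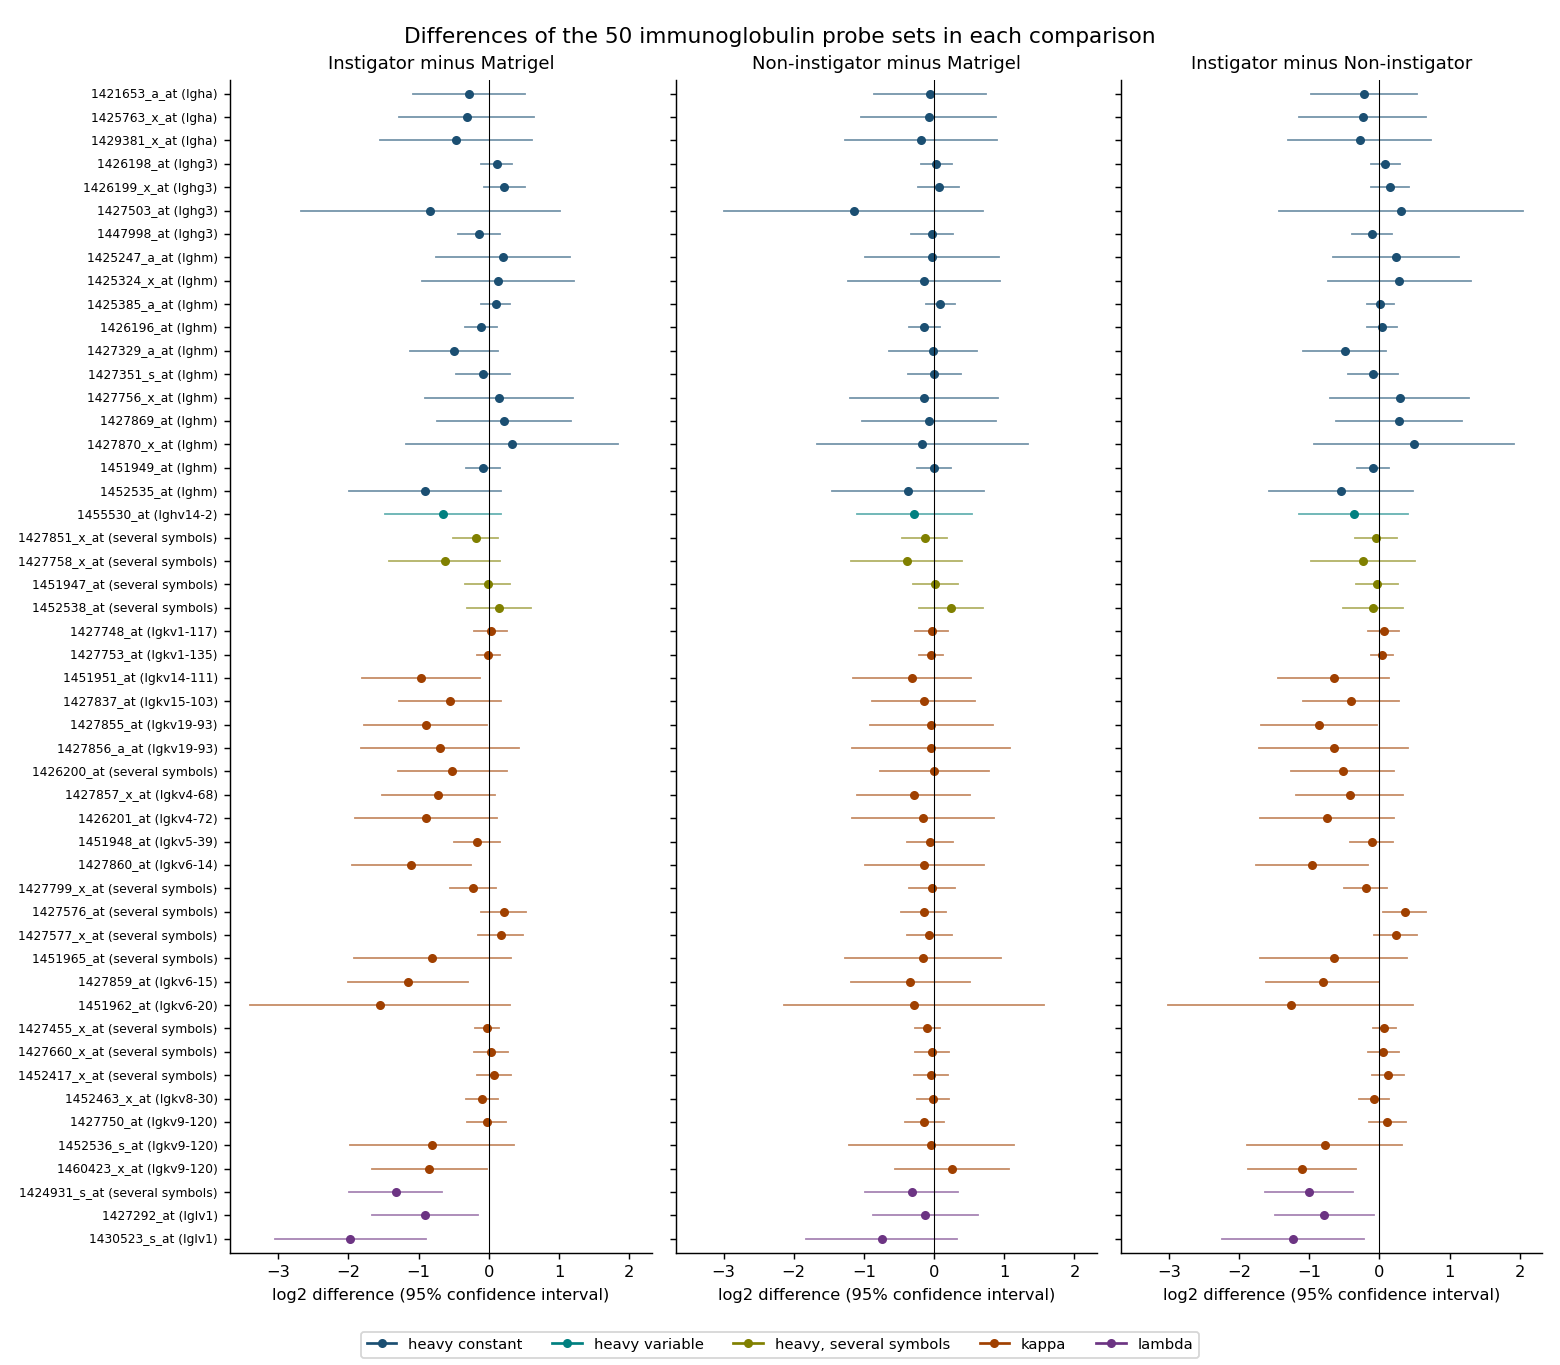
Each point is the fitted log2 difference of 1 immunoglobulin probe set in the comparison named above the panel, with its 95% confidence interval (limma, 14 arrays), coloured by class. The 3 lambda probe sets and many kappa probe sets lie left of 0 in both panels with Instigator, the heavy chain constant probe sets scatter around 0, and all 50 intervals in the Non-instigator minus Matrigel panel cross 0.

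The lambda light chain showed the lowest values in Instigator arrays. Probe set 1424931_s_at, whose symbols are Iglc1 and Iglv1, a lambda constant and a lambda variable segment, gave 12.56, 12.66, 12.72 and 12.71 on Matrigel 1 to 4. On Instigator 1 to 5 it gave 11.62, 11.81, 10.91, 10.21 and 12.13. On Non-instigator 1 to 5 it gave 11.67, 12.40, 12.35, 12.64 and 12.66. Every Instigator value lay below every Matrigel value, Instigator 3 and 4 were the lowest of the 14 arrays, and Instigator 1, 2 and 5 lay within or close to the span of Non-instigator. Matrigel averaged 12.66 ± 0.08 (SD, n = 4), Instigator 11.34 ± 0.77 (SD, n = 5) and Non-instigator 12.34 ± 0.40 (SD, n = 5). The difference between Instigator and Matrigel was -1.33 (SE 0.31, 95% confidence interval -1.99 to -0.66), which is 2.51-fold lower, with an unadjusted limma p of 0.000700 and an adjusted p of 0.439. Against Non-instigator the difference was -1.01 (SE 0.29, interval -1.63 to -0.38, adjusted limma p 0.813). The 1.25-fold lower mean of Non-instigator against Matrigel, a difference of -0.32, was about the size of its SE of 0.31.

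Iglv1, a lambda variable segment, had 2 probe sets of its own. On 1430523_s_at the Matrigel arrays gave 11.40, 11.37, 12.62 and 11.72, the Instigator arrays 10.21, 10.27, 9.19, 8.23 and 11.10, and the Non-instigator arrays 9.79, 11.00, 11.17, 11.46 and 11.72. Instigator again lay wholly below Matrigel, with Instigator 5 the nearest to it, and Non-instigator 1 lay among the Instigator values. The difference of -1.97 between Instigator and Matrigel (SE 0.50, interval -3.05 to -0.90, adjusted limma p 0.439) was the largest of any member, a 3.93-fold lower mean. Against Non-instigator it was -1.23 (SE 0.47), and Non-instigator against Matrigel gave -0.75 (SE 0.50). The dimmer set 1427292_at gave smaller differences in the same directions, with -0.91 (SE 0.35), -0.79 (SE 0.33) and -0.12 (SE 0.35).

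Instigator 4 was the lowest array for all 3 lambda probe sets. Without it the Instigator minus Matrigel differences were -1.05 for 1424931_s_at, -1.58 for 1430523_s_at and -0.66 for 1427292_at. Without Instigator 4 and Matrigel 3 they were -1.03, -1.30 and -0.57 in the same order. With Instigator 5 counted as Non-instigator, as its description would have it, they were -1.52, -2.30 and -0.99. Across the 24 settings tried, both comparisons with Instigator stayed negative for the 3 probe sets, and the adjusted limma p for Instigator against Matrigel ranged from 0.203 to 0.712 for 1424931_s_at. The 3 probe sets target the same small locus, and transcripts of Iglv1 can be read by more than 1 of them, so they are not independent.

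**Figure D2:**
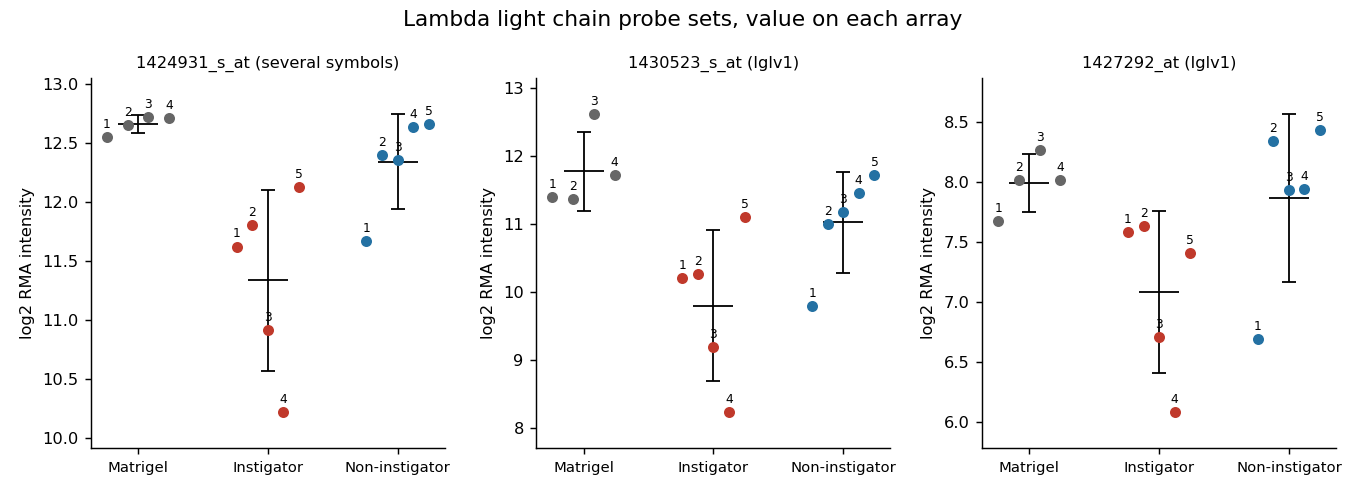
Log2 RMA intensity of the 3 lambda probe sets on each array, with digits giving the replicate number, long bars the group mean and short bars 1 SD (n = 4, 5 and 5). All Instigator points lie below all Matrigel points, and Instigator 4 is the lowest in each panel.

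Kappa variable segments showed the same direction for several named segments. Igkv6-15 (1427859_at) gave 11.11, 10.88, 12.01 and 11.47 on the Matrigel arrays. The Instigator arrays gave 9.95, 10.61, 9.56, 9.48 and 11.50. The Non-instigator arrays gave 10.13, 10.66, 11.45, 11.32 and 11.59. Instigator 1 to 4 lay below all Matrigel arrays, while Instigator 5 lay among them, and Non-instigator 1 lay among the low Instigator values. The difference was -1.15 against Matrigel (SE 0.40, 2.21-fold lower, adjusted limma p 0.439) and -0.81 against Non-instigator (SE 0.38). With Instigator 4 and Matrigel 3 left out, the first of these was -0.75, with an adjusted limma p of 0.733.

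Igkv6-14 (1427860_at) averaged 10.98 ± 0.51 in Matrigel (SD, n = 4), 9.88 ± 0.92 in Instigator and 10.84 ± 0.47 in Non-instigator (SD, n = 5 each). Its values were 10.33, 10.88, 11.16 and 11.53 in Matrigel, 9.89, 10.12, 8.80, 9.33 and 11.24 in Instigator, and 10.15, 10.57, 11.17, 11.07 and 11.23 in Non-instigator. Instigator 1 to 4 were the lowest 4 arrays, and Instigator 5 lay near the highest arrays of the other groups. The differences were -1.10 (SE 0.40) against Matrigel and -0.96 (SE 0.37) against Non-instigator. Igkv14-111 (1451951_at) and Igkv19-93 (1427855_at) lay -0.97 (SE 0.39) and -0.90 (SE 0.41) from Matrigel, and both had Instigator 4 as their lowest array, at 9.49 and 9.71. Without Instigator 4 these became -0.59 and -0.60.

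Igkv9-120 showed how far probe sets of 1 segment can differ. On 1460423_x_at the Matrigel arrays lay close together at 11.05, 10.90, 10.87 and 10.88, the Instigator arrays lay at 10.39, 10.64, 10.14, 8.56 and 10.65, and the Non-instigator arrays at 10.07, 11.54, 11.33, 11.43 and 11.53. All Instigator arrays were below all Matrigel arrays, and Non-instigator 2 to 5 were above all of both other groups. It was the kappa probe set with the smallest p against Non-instigator, with a difference of -1.10 (SE 0.36, 2.15-fold lower, unadjusted limma p 0.00812, adjusted 0.813), and lay -0.85 from Matrigel (SE 0.38). Without Instigator 4 these were -0.72 and -0.47. The other Igkv9-120 probe sets, 1452536_s_at and 1427750_at, gave -0.82 (SE 0.55) and -0.03 (SE 0.13) against Matrigel. The ending x_at marks oligonucleotides that can also bind other transcripts, and s_at marks sets shared by several transcripts of a family, so a value may hold related variable segments.

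Together with the 3 lambda probe sets, 1460423_x_at made 4 members whose Instigator and Matrigel arrays did not overlap, all lower in Instigator, beside 1.68 percent of all probe sets (1.02 percent were wholly higher). No member was wholly lower or wholly higher in the other comparisons. There, 0.610 percent of all probe sets were wholly lower and 0.287 percent wholly higher in Non-instigator than in Matrigel, and 0.446 and 0.751 percent in Instigator than in Non-instigator.

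Igkv6-20 (1451962_at) varied most of all members, over 4.89 log2 units. It gave 7.94, 6.98, 10.30 and 8.09 in Matrigel, 7.17, 6.28, 5.70, 5.74 and 8.99 in Instigator, and 6.38, 7.78, 8.62, 10.59 and 6.84 in Non-instigator. The highest arrays, Matrigel 3 and Non-instigator 4, stood far above the rest of their groups, and the groups overlapped widely. The difference of -1.55 between Instigator and Matrigel came with an SE of 0.87 and an interval from -3.41 to 0.31.

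Other kappa probe sets did not share the direction. The only member with an unadjusted p under 0.05 that was higher in Instigator was 1427576_at, annotated with Igkv6-14, Igkv6-23 and Igkv8-19, at 0.36 above Non-instigator (SE 0.14) and 0.21 above Matrigel (SE 0.15). The 3 probe sets that include the constant gene Igkc among their symbols differed little between groups. On 1427455_x_at the Matrigel arrays lay at 13.69, 13.66, 13.82 and 13.60, the Instigator arrays at 13.65, 13.64, 13.63, 13.64 and 13.77, and the Non-instigator arrays at 13.37, 13.67, 13.61, 13.63 and 13.70. Its difference was -0.03 (SE 0.08) against Matrigel and 0.07 (SE 0.08) against Non-instigator. The other members of the trio, 1427660_x_at and 1452417_x_at, differed by 0.03 (SE 0.11) and 0.08 (SE 0.11) between Instigator and Matrigel. The highest value of any probe set on an array ran from 13.69 to 13.84 over the 14 arrays, so 1427455_x_at sat at or near the top of the intensity range, and whether a ceiling held its values together was not tested. Igkv1-135 (1427753_at) had the smallest range of the kappa probe sets and was dimmer than the median probe set, with a difference of -0.00 (SE 0.08) between Instigator and Matrigel.

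**Figure D3:**
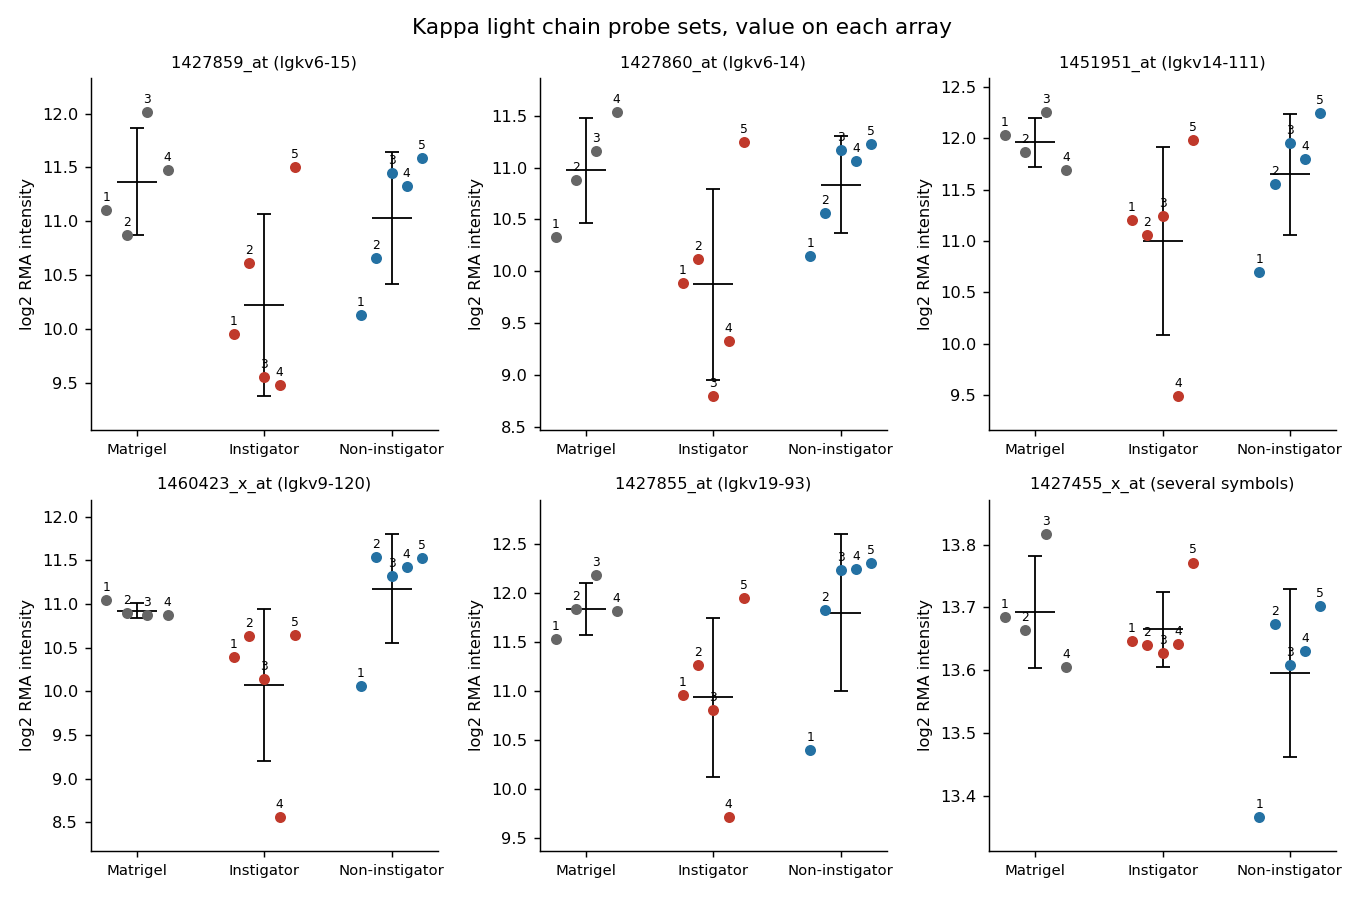
Log2 RMA intensity of 6 kappa probe sets on each array, drawn as in the lambda plot (digits are replicate numbers, long bars the group mean, short bars 1 SD). The first 5 panels, for variable segments, have low Instigator arrays with Instigator 5 as the highest of its group, and the panel for 1427455_x_at spans only 13.37 to 13.82.

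The 11 probe sets of the IgM heavy chain disagreed among themselves, with Instigator minus Matrigel differences from -0.91 to 0.33. They gave no single direction to set beside the kappa median of -0.54. The sets that include Igkc lay at -0.03, 0.03 and 0.08, while the heavy chain variable set Ighv14-2 lay at -0.65. The lambda set with Iglc1 lay at -1.33. Whether chain or segment type went with the differences was not tested. The brightest Ighm probe set, 1427351_s_at, averaged 13.20 ± 0.12 in Matrigel (SD, n = 4), 13.12 ± 0.31 in Instigator and 13.21 ± 0.35 in Non-instigator (SD, n = 5 each). It gave 13.37, 13.11, 13.18 and 13.15 in Matrigel, 13.00, 13.10, 12.70, 13.53 and 13.29 in Instigator, and 12.60, 13.26, 13.39, 13.32 and 13.47 in Non-instigator. The groups overlapped, Non-instigator 1 was lowest and Instigator 4, the lowest array for lambda, was highest. The difference between Instigator and Matrigel was -0.08 (SE 0.18), and its sign changed when Instigator 3 was left out.

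A set of 5 Ighm probe sets (1425247_a_at, 1425324_x_at, 1427756_x_at, 1427869_at and 1427870_x_at) shared a pattern that crossed the groups, singled out after its values were seen. On 1427870_x_at the Matrigel arrays gave 12.14, 9.63, 11.99 and 12.01. The Instigator arrays gave 12.55, 10.99, 9.92, 12.89 and 12.52. The Non-instigator arrays gave 11.12, 9.58, 11.03, 12.56 and 12.10. Matrigel 2, Instigator 3 and Non-instigator 2 were each the lowest of their group, and the same 3 arrays were lowest in all 5 probe sets. The dim Ighg3 probe set 1426198_at shared those lowest arrays, which makes 6 members. The low arrays of 1427870_x_at lay over 1 log2 unit below the next array of their group, and the group means differed by less than the spread, with Instigator 0.33 above Matrigel (SE 0.71) and 0.50 above Non-instigator (SE 0.67). On the same 3 arrays 1427351_s_at read 13.11, 12.70 and 13.26, so the brightest Ighm probe set did not show the drop on Matrigel 2 or Non-instigator 2.

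Other Ighm probe sets lay lower in Instigator. On 1427329_a_at the means were 12.58 ± 0.23 in Matrigel (SD, n = 4), 12.08 ± 0.46 in Instigator and 12.58 ± 0.65 in Non-instigator (SD, n = 5 each), with Non-instigator 1 at 11.46 and Instigator 4 at 11.53 the lowest arrays. The difference was -0.50 (SE 0.29) against Matrigel and -0.49 (SE 0.28) against Non-instigator. On 1452535_at the difference was -0.91 (SE 0.51) against Matrigel, with Instigator 4 lowest at 7.12 and Non-instigator 1 next at 7.36. Across the 11 probe sets the Instigator minus Matrigel difference thus ran from -0.91 to 0.33, so no direction for Ighm as a gene can be read from these arrays.

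The alpha chain of IgA was measured by 3 probe sets that ordered the arrays similarly but not identically. On 1421653_a_at the Matrigel arrays gave 11.51, 12.78, 12.43 and 13.20. The Instigator arrays gave 12.75, 12.36, 12.03, 11.53 and 12.32. The Non-instigator arrays gave 12.02, 12.71, 11.39, 13.21 and 12.76. Matrigel 1, Instigator 4 and Non-instigator 3 were the lowest of their groups, as in the other Igha probe sets, and the groups overlapped. The difference was -0.28 (SE 0.37) between Instigator and Matrigel, -0.06 (SE 0.37) between Non-instigator and Matrigel and -0.22 (SE 0.35) between Instigator and Non-instigator. The dimmer Igha sets 1425763_x_at and 1429381_x_at gave -0.31 (SE 0.45) and -0.47 (SE 0.51) for Instigator against Matrigel.

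Of the heavy chain probe sets, 1427503_at, 1 of the 4 for the gamma3 chain of IgG3, had the widest spread. On 1427503_at the Matrigel arrays gave 9.39, 7.05, 11.05 and 10.49, the Instigator arrays 8.53, 8.55, 8.66, 7.26 and 10.32, and the Non-instigator arrays 8.07, 7.16, 7.60, 7.81 and 11.12. Matrigel 3, Matrigel 4, Instigator 5 and Non-instigator 5 were above 10, and Matrigel 2, Non-instigator 2 and Instigator 4 were near 7, so high and low arrays occurred in every group. The difference from Matrigel was -1.14 for Non-instigator (SE 0.86) and -0.83 for Instigator (SE 0.86), each within the spread. Under array weights, which let limma count noisier arrays less, the Instigator difference was 0.33. The other 3 Ighg3 probe sets differed by -0.14 to 0.22 between Instigator and Matrigel. Ighv14-2 (1455530_at), the 1 heavy chain variable segment with a probe set of its own, lay -0.65 from Matrigel in Instigator (SE 0.39) and -0.28 in Non-instigator (SE 0.39).

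**Figure D4:**
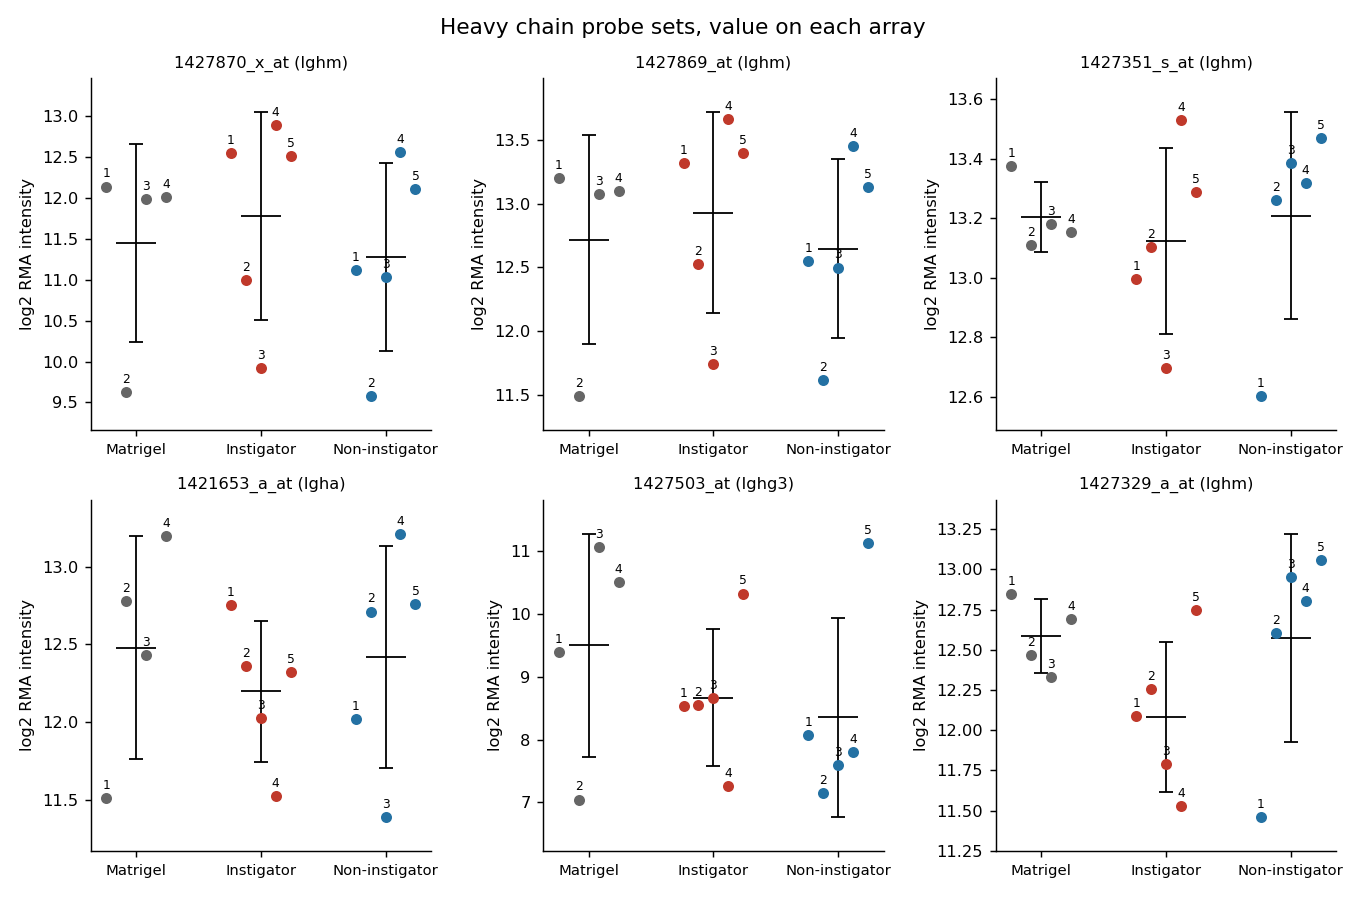
Log2 RMA intensity of 6 heavy chain probe sets on each array, drawn as in the lambda plot. Matrigel 2, Instigator 3 and Non-instigator 2 are the low arrays of 1427870_x_at and 1427869_at, the groups overlap in every panel, and 1427503_at spans 7.05 to 11.12.

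Immunoglobulin probe sets were among the most variable on the array within groups. The median within-group SD was 0.61 over the members and 0.19 over all probe sets, and 29 of 50 members were in the top 5 percent of SDs, while 10 were below the overall median. Over all members, the median log2 value per array was 9.67, 9.74, 10.37 and 9.74 on Matrigel 1 to 4. It was 9.57, 9.85, 8.73, 8.40 and 10.24 on the Instigator arrays and 8.92, 9.48, 9.60, 9.92 and 10.40 on the Non-instigator arrays. Instigator 3 and 4 were the lowest arrays by this measure, Non-instigator 1 was next, and Instigator 5 was above all Matrigel arrays but Matrigel 3.

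The same arrays led for many members. Instigator 4 was the lowest of the 14 arrays for 18 members, Non-instigator 1 for 10, Instigator 3 for 8 and Matrigel 2 for 6. Matrigel 3 was the highest for 13 members, Non-instigator 5 for 9, Instigator 5 for 8 and Non-instigator 4 for 7. Within its own group Instigator 5 was the highest array for 33 of 50 members and Non-instigator 1 the lowest for 35 of 50. Instigator 4 and Matrigel 3 are the arrays that stood apart in the 5' and 3' controls and in the array median above. Their part in the member differences beyond the values without them was not tested.

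**Figure D5:**
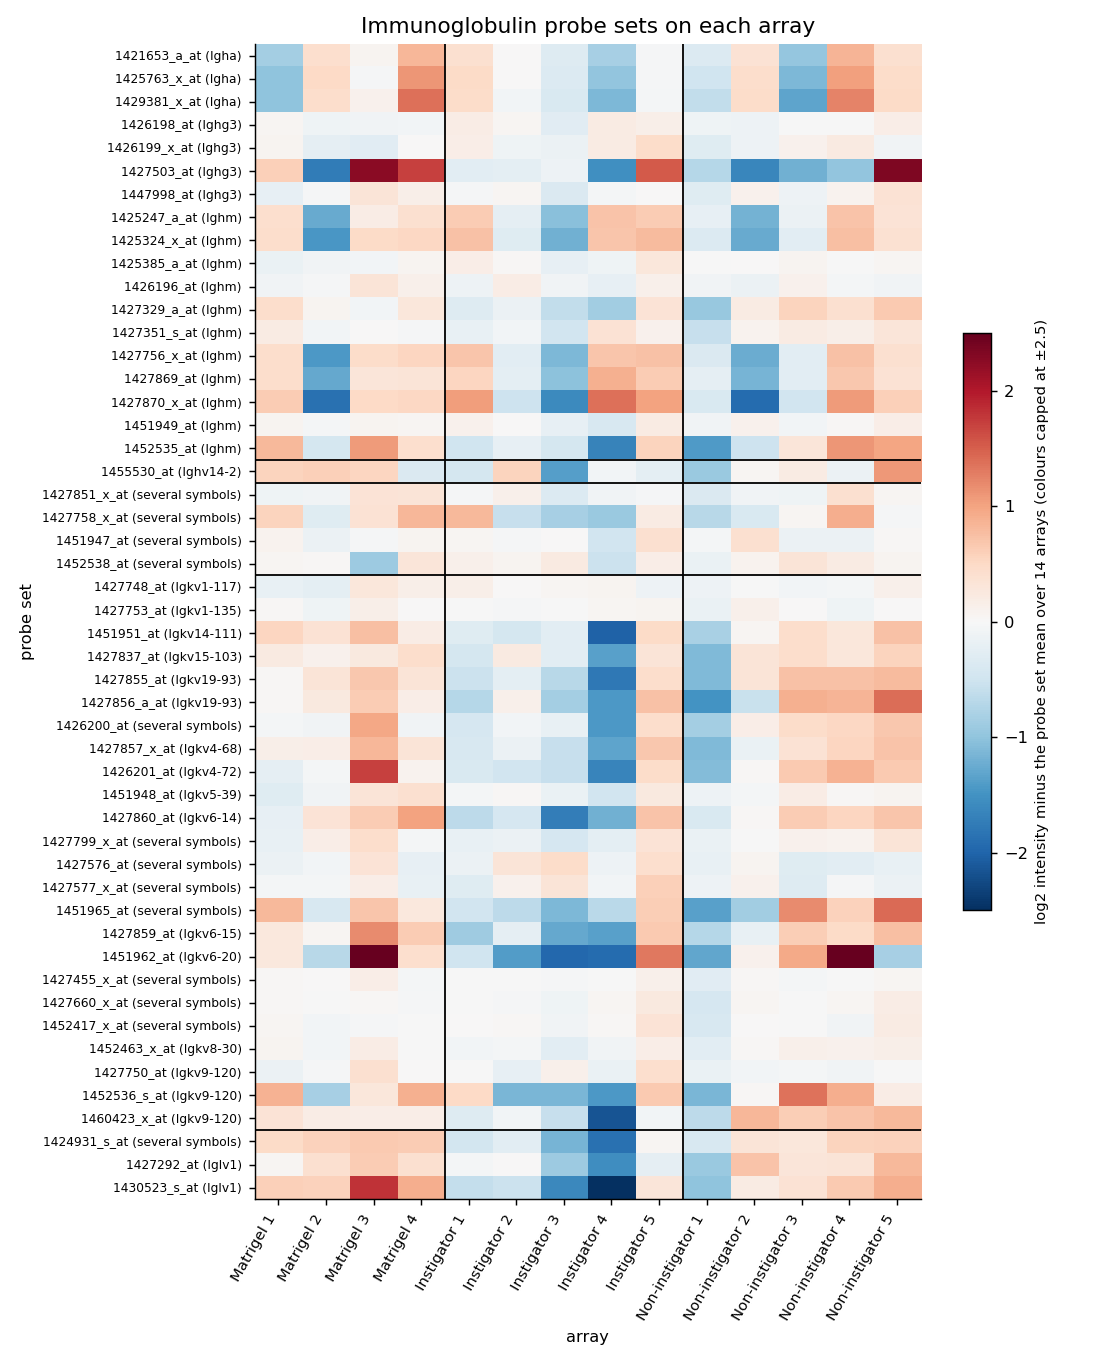
Each row is 1 immunoglobulin probe set and each column 1 array, with colour for the log2 intensity minus that probe set's mean over the 14 arrays (capped at 2.5 in either direction). Blue blocks mark Instigator 4, Instigator 3 and Non-instigator 1 across the kappa and lambda rows, while the low Ighm arrays are Matrigel 2, Instigator 3 and Non-instigator 2.

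Markers of the cells that make antibody, and those of plasmacytoid dendritic cells, also averaged lower in Instigator, although the groups overlapped. The B lineage mean was 8.90 ± 0.24 (SD) over the 4 Matrigel arrays, 8.41 ± 0.44 over the 5 Instigator arrays and 8.69 ± 0.46 over the 5 Non-instigator arrays. Of 8 B lineage markers 7 were measured, and their mean per array ran from 8.59 to 9.17 in Matrigel, 7.68 to 8.86 in Instigator and 8.0 to 9.28 in Non-instigator. Instigator 3 was the lowest array and Non-instigator 1 the next. Of 6 plasma cell markers 5 were measured, with means of 9.61 to 10.10, 9.20 to 9.83 and 9.08 to 10.27. The plasmacytoid dendritic list, 5 of 6 measured, ran from 10.09 to 10.41 in Matrigel, 9.02 to 10.11 in Instigator and 9.35 to 10.31 in Non-instigator. In Instigator against Matrigel its median of -0.66 was larger in size than the B lineage median of -0.54 and the plasma cell median of -0.18. On these 3 lists 5 of 5, 6 of 7 and 5 of 5 markers lay below 0. At an unadjusted p under 0.05, 4, 3 and 2 were lower, beside 7.00 percent of all probe sets. Lists for other cell types were read in the same way. In Instigator against Matrigel the 4 measured T cell markers all lay below 0 (median -0.28), beside 57.2 percent of all probe sets. On the NK cell list 4 of 5 did (median -0.09). The 1 above 0 was a probe set with the symbol Klrb1b, read in place of the listed Klrb1c. Of 6 neutrophil markers 5 lay above 0, with a median of 0.15. Of these, 3 had an unadjusted p under 0.05, beside 3.27 percent of all probe sets higher. Without Instigator 4 there were 2, and without Instigator 4 and Matrigel 3 there were 0, with a neutrophil median of 0.14. In that last setting 0 B lineage, plasma cell or plasmacytoid dendritic markers were lower at p under 0.05, beside 3.39 percent of all probe sets. Their medians were then -0.53, -0.15 and -0.51. The 4 basophil and mast cell markers all lay above 0 (median 0.48). The 2 measured erythroid markers and the 3 stem and progenitor markers had medians of 0.10 and 0.06. RMA gives no value of 0, so none of these markers can be read as absent. The part of cell composition in the light chain differences was not tested.

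Genes that act with immunoglobulin were read from lists named by role, each gene at its brightest probe set, and none passed the adjusted threshold in any comparison. To set beside the list counts, 57.2 percent of all probe sets lay below 0 in Instigator against Matrigel. The share was 44.2 percent in Instigator against Non-instigator and 63.8 percent in Non-instigator against Matrigel. At an unadjusted p under 0.05, 7.00 percent were lower in Instigator than in Matrigel and 3.27 percent higher. Of 14 antigen receptor partners and B cell surface genes 12 were measured, and all 12 lay below 0 in Instigator against Matrigel. Their median was -0.55, and 4 had an unadjusted p under 0.05. Cd79a and Cd79b, the signalling chains bound to membrane immunoglobulin, lay at -0.65 (SE 0.30) and -0.69 (SE 0.28). Cd74, the invariant chain of class II antigen presentation, lay at -0.68 (SE 0.29). Tnfrsf13b, a receptor for B cell survival ligands, lay at -0.53 (SE 0.14). Against Non-instigator all 12 were again below 0, with a median of -0.36, and Non-instigator against Matrigel had 11 of 12 below 0, with a median of -0.27.

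The recombination and surrogate light chain list centred near 0, with 8 of 11 measured genes below 0 and a median of -0.05 in Instigator against Matrigel. Igll1, part of the surrogate light chain that pairs with mu before a light chain is made, and similar to lambda in its constant part, was the gene of this list furthest from Matrigel at -0.88 (SE 0.24, unadjusted limma p 0.00206, adjusted 0.439), and lay at -0.63 (SE 0.22) against Non-instigator. Vpreb3, a further component linked to the surrogate chain, lay at -0.54 (SE 0.22). Vpreb1, its variable-like partner, lay at -0.19 (SE 0.32), and Rag1, which cuts the gene segments, at -0.48 (SE 0.33). Dntt, which adds bases at the joins, lay at 0.03 (SE 0.35). The list of transcription factors for immunoglobulin genes had 10 of 13 measured genes below 0 and a median of -0.44. Its members Tcf4 and Irf8 also stand on the plasmacytoid dendritic marker list, so the list is not particular to the B lineage. The lowest were Spib at -0.77 (SE 0.28), Irf4 at -0.74 (SE 0.37) and Tcf4 at -0.62 (SE 0.21). The 3 with an unadjusted p under 0.05 were Spib, Tcf4 and Mef2c, the last at -0.44 (SE 0.15). Pax5 lay at 0.08 (SE 0.08), but its probe set was dim, at 5.57 to 5.87 on all arrays. That is below the median of every array, so the value says little about Pax5.

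The plasma cell and antibody secretion list had 13 of 14 measured genes below 0 in both comparisons with Instigator, with medians of -0.29 against Matrigel and -0.31 against Non-instigator. Against Matrigel 5 genes had an unadjusted p under 0.05. They were Sdc1, the surface marker of plasma cells, at -0.94 (SE 0.36), Tnfrsf17, a survival receptor of plasma cells, at -0.63 (SE 0.26), the folding enzyme Pdia4 at -0.57 (SE 0.19), the elongation factor Ell2 at -0.54 (SE 0.25), and the endoplasmic reticulum chaperone Hsp90b1 at -0.45 (SE 0.19). Jchain, which links IgM and IgA into polymers, lay at -0.14 (SE 0.15), and Xbp1, the transcription factor of the secretory programme, at -0.18 (SE 0.15). Non-instigator against Matrigel had 8 of 14 below 0 and a median of -0.04. Instigator 4 was the lowest Instigator array for Hsp90b1, at 10.23 where the next read 10.74, and without it the Hsp90b1 difference was -0.30 (SE 0.15). Without Instigator 4, 3 genes of this list were lower at an unadjusted p under 0.05, beside 5.65 percent of all probe sets. Without Instigator 4 and Matrigel 3 none of the 14 were, beside 3.39 percent, with 12 below 0 and a median of -0.18. In that last setting the receptor partner list kept 12 of 12 below 0 with a median of -0.53 and 1 gene at p under 0.05, the recombination list had 5 of 11 below 0, and the transcription factor list 9 of 13 with a median of -0.30.

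Receptor signalling genes (7 of 10 measured) and the receptors that bind antibody (8 of 8) had medians of 0.11 and 0.06 in Instigator against Matrigel, with 3 and 2 genes below 0. At an unadjusted p under 0.05, 1 signalling gene was lower, beside 7.00 percent of all probe sets. The signalling median changed sign without Instigator 4, to -0.08 with 4 of 7 below 0. Without Instigator 4 and Matrigel 3 it was also -0.08, with 5 of 7 below 0. The antibody receptor medians were 0.13 and 0.05 in these 2 settings. Fcgr1, the high-affinity receptor for IgG on myeloid cells, lay 0.70 above Non-instigator in Instigator (SE 0.19, unadjusted limma p 0.00269, adjusted 0.813). It was the only antibody receptor with an unadjusted p under 0.05, beside 2.24 percent of all probe sets higher in Instigator than in Non-instigator.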

How the data were processed

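The authors deposited 1 linear intensity per probe set and array (22690 by 14), summarised with RMA in affy under R 2.11.0, per the submitters' processing notes, with options not stated there. No further normalization was applied, and every deposited intensity was converted to log2. After 64 array controls were dropped, limma 3.58.1 (R 4.3.3) fitted all 14 arrays with group as the factor (lmFit, contrasts.fit, eBayes with no trend). Benjamini-Hochberg adjustment ran over 22626 probe sets, with a threshold of 0.05. The fit was tested on simulated data.

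Members came from the platform annotation, which can be old. 15 members shared a target sequence with another member, in 7 groups, so members are not independent. The table names no genome build, so no positions are given. The members and gene lists were chosen with earlier results of these data known. Named members were the brightest probe set of each constant gene, the 6 with the smallest p per direction in each comparison, and those with the largest and smallest range per class. Other members were named after their values were seen. A gene outside the members stands at its brightest probe set with 1 symbol.

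Alternatives were the groups compared alone, brighter probe sets, quantile normalization, centring on array medians, array weights, a trended and robust variance fit, a replicate block, each array left out, Instigator 5 counted as Non-instigator, and members without x_at, s_at and several symbols. Leaving out Instigator 4 and Matrigel 3 together was added after seeing the data. Plots used matplotlib 3.10.9 under Python 3.11.15.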

Additional observations from a re-analysis of the deposited data

Results flagged for a closer look

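In 153 groups of 4 or 5 arrays (each member in each group, and the median over the members), the highest or lowest array was set against the rest by Dixon's gap test. Chance marks about 1 in 20 groups, or 7.7 of 153, and 25 were marked, on probe sets that are not independent.

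The lowest array of the Non-instigator group was marked 8 times, each time Non-instigator 1. It read 11.46 on 1427329_a_at, where the next array read 12.61, and 12.60 on 1427351_s_at, both Ighm. Among kappa probe sets it read 11.13 on 1427837_at (Igkv15-103), 10.40 on 1427855_at (Igkv19-93), 13.37 on 1427455_x_at, 12.71 on 1452463_x_at (Igkv8-30) and 10.07 on 1460423_x_at (Igkv9-120). On the lambda probe set 1427292_at it read 6.69. In the same group Non-instigator 5 stood above the rest on the Ighg3 probe set 1427503_at, at 11.12 against 8.07 for the next array.

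Matrigel 2 was marked as low on 6 Ighm probe sets, with 11.33 on 1425247_a_at, 10.82 on 1425324_x_at, 10.78 on 1427756_x_at, 11.49 on 1427869_at, 9.63 on 1427870_x_at and 6.07 on 1451949_at. On 1427870_x_at the next Matrigel array read 11.99. Matrigel 3 was marked as high on 2 kappa probe sets, with 8.88 on 1426200_at and 10.65 on 1426201_at (Igkv4-72), and on the median over the members, 10.37 against 9.74 for the next array. Matrigel 4 read 9.53 on 1455530_at (Ighv14-2), below the rest, and Matrigel 1 read 11.05 on 1460423_x_at, above the rest.

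In the Instigator group, Instigator 4 was low on 1460423_x_at at 8.56 and on 1452538_at at 6.13. Instigator 5 was high on 1427455_x_at at 13.77 and on 1452417_x_at at 13.27. Instigator 3 was low on the Ighg3 probe set 1447998_at at 7.45.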

How the results depend on the processing

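Counts of members at an unadjusted p under 0.05 depended on the arrays and settings. With 1 array left out, the count of 8 for Instigator against Matrigel ranged from 4 to 14. The 4, without Matrigel 3 or without Instigator 4, are 8 percent of members, beside 6.96 and 8.49 percent of all probe sets. The 14, without Instigator 5, are 28 percent, beside 11.9 percent. Under array weights the count was 5 (10 percent, beside 11.1 percent). It was 14 (28 percent, beside 12.9 percent) with Instigator 5 counted as Non-instigator. Without Instigator 4 and Matrigel 3 it was 3 (6 percent, beside 6.86 percent). For Instigator against Non-instigator the count of 8 ranged from 3 to 17 with 1 array left out. The 3, without Instigator 3, Instigator 4 or Non-instigator 5, are 6 percent of members, beside 4.75, 4.38 and 3.17 percent of all. It was 4 without Non-instigator 3 (8 percent, beside 3.68 percent) and 5 without Non-instigator 4 (10 percent, beside 3.16 percent). The 17, without Non-instigator 1, are 34 percent, beside 8.56 percent. With the 2 groups alone it was 5 (10 percent, beside 6.50 percent), and with Instigator 5 moved 17 (34 percent, beside 9.40 percent). Without Instigator 4 and Matrigel 3 it was 4 (8 percent, beside 7.58 percent). For Non-instigator against Matrigel the count of 0 ranged from 0 to 1 (2 percent, beside 3.94 percent without Matrigel 2 and 1.71 percent without Non-instigator 5). Among the 25 members left after dropping x_at, s_at and several-symbol sets, the counts were 5, 0 and 4, and those below 0 were 20, 23 and 16, in the order Instigator minus Matrigel, Non-instigator minus Matrigel, Instigator minus Non-instigator. The 42 members below 0 for Non-instigator against Matrigel were 17 under array weights and 23 to 44 with 1 array left out. The probe sets called for Instigator against Matrigel ranged from 0 to 1 with 1 array left out, and were 1 without Instigator 4 and Matrigel 3. That probe set was Scd2, no member, at -0.76 (SE 0.10, adjusted limma p 0.0306) without Instigator 4. The member median for Instigator against Matrigel, -0.20 as reported, was -0.066 under array weights, -0.069 without Instigator 4 and Matrigel 3, -0.51 over brighter probe sets, -0.13 after centring and -0.10 to -0.30 with 1 array left out (without Matrigel 4 and Matrigel 1). It was -0.50 over the 25 members left without x_at, s_at and several-symbol sets. For Instigator against Non-instigator, -0.11 as reported, it was -0.064 under array weights, -0.057 without Instigator 4, -0.32 over brighter probe sets and -0.21 without Non-instigator 1. For Non-instigator against Matrigel, -0.072 as reported, it was 0.047 under array weights, -0.016 after centring and -0.17 to 0.030 with 1 array left out.

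The replicate numbers were checked as a pairing. Deviations of same-numbered arrays correlated at a median of 0.05 (range -0.20 to 0.27, 13 array pairs), against -0.02 for other pairs. The pairs are few and share arrays, so these values cannot show whether a number marks a shared animal, litter or day. With the replicate block, members at an unadjusted p under 0.05 were 17 for Instigator against Matrigel (34 percent, beside 12.4 percent of all probe sets). For Non-instigator against Matrigel there was 1 (2 percent, beside 2.76 percent). With the block, 3 Non-instigator minus Matrigel differences changed sign, to -0.050 (1427351_s_at), -0.0021 (1426198_at) and -0.035 (1451947_at).

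Signs changed for differences near 0 or with wide errors; the cause was not tested. For Non-instigator minus Matrigel, leaving out 1 array gave -0.062 to 0.16 for 1427351_s_at, -0.38 to 0.20 for 1421653_a_at, -0.077 to 0.060 for 1451947_at, -0.018 to 0.38 for 1452538_at and -0.015 to 0.062 for 1426198_at. 1427351_s_at was -0.012 after quantile normalization and -0.0043 without Instigator 4 and Matrigel 3, where 1452538_at was -0.018. Array weights gave -0.0053 for 1451947_at. For Instigator minus Matrigel, 1427351_s_at ranged from -0.18 to 0.024, and 1427503_at was 0.33 under array weights and 0.036 without Instigator 4 and Matrigel 3. For Instigator minus Non-instigator, leaving out 1 array gave -0.24 to 0.021 for 1427351_s_at and -0.10 to 1.00 for 1427503_at, and array weights gave 0.12 for 1421653_a_at. With Instigator 5 moved, 1427503_at was -0.43, 1426199_x_at -0.012, 1452417_x_at -0.019 and 1427750_at -0.072.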
